A study of Mus musculus with 8 samples.

Results

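Hepatic stellate cells are the pericytes of the liver sinusoid, and 10 of their genes were followed here in the livers of WT and HKO mice. The genes were taken by symbol from the 17810 genes of the count table. Lrat, Des and Reln are used as markers of stellate cells, and Dcn and Lum encode secreted proteoglycans. Pdgfra and Pdgfrb encode receptors for platelet-derived growth factor (PDGF). Acta2, Tagln and Vim are commonly used as genes of the activated cell. Collagens were left out of this choice. All 10 genes were among the 12395 with enough counts to be tested.

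The libraries came from 4 WT and 4 HKO male mice, 1 library per liver frozen after perfusion, at 5 months of age after 3 months on a high-fat diet deficient in choline (CD-HFD), begun at 8 weeks of age. HKO mice carry miR-33 alleles flanked by loxP sites and express Cre recombinase from the albumin promoter, which removes miR-33 in hepatocytes. Stellate cells are therefore not the cell type in which the gene was deleted. The WT mice were littermates, and whether they carried the floxed alleles without Cre is not given in the sources used here. Both groups received the CD-HFD and no liver of mice on another diet was compared.

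In a healthy liver the stellate cell stores vitamin A as retinyl esters in lipid droplets, and it surrounds the sinusoidal endothelium with processes that hold desmin. After injury these cells lose their vitamin A, divide in answer to PDGF and turn into myofibroblasts that contract through alpha smooth muscle actin and lay down collagen. No gene of this kind belongs to stellate cells alone, because portal fibroblasts, mesothelial cells, vascular smooth muscle and endothelium share several of them. In whole liver RNA, fewer stellate cells and less RNA per stellate cell cannot be told apart.

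Of the 10 genes, Vim was the only one whose 4 HKO livers all lay below the 4 WT livers, and the only one past the threshold of an adjusted p under 0.05. In the same fit 3.44% of all tested genes were lower in HKO livers and 1.71% were higher, 5.15% in either direction, and 1 gene of 10 is too few to set these genes apart from that share. Lrat, Des, Reln and the proteoglycan gene Dcn differed by less than the spread between livers. The direction of Acta2 turned when a single liver was left out, and also with the method.

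The series as a whole held 12174339 to 18735785 counts per liver. Expression is given in CPM, the counts of a gene relative to its library's total after scaling by the trimmed mean of M values (TMM), and a log2 fold change is always HKO over WT. At these depths 3 counts, the smallest level taken as detected, amounted to 0.160 to 0.246 CPM of unscaled totals, which covers counting error only. After scaling, 3 counts came to 0.255 CPM in HKO replicate 4. The livers expressed hepatocyte genes at high levels, with Alb between 47064 and 98815 CPM. HKO replicate 2 stood apart in the bile duct markers Krt19 and Epcam. Krt19 was at 16.9 CPM there and at most at 1.07 CPM in the other 7 livers. Epcam was at 16.5 CPM there against at most 1.02 CPM. The sum of 4 cholangiocyte markers was 44.6 CPM there against 6.17 to 16.4 CPM. The rest of that sum, Krt7 and Sox9 together, was higher in HKO replicate 3 than in HKO replicate 2. WT replicate 1 had the highest sum of 8 mesothelial and portal fibroblast markers, 26.9 CPM, followed by WT replicate 4 with 19.4 CPM, while the other WT livers were at 9.40 and 10.4 CPM and the HKO livers at 3.75 to 9.18 CPM. Values without HKO replicate 2, without WT replicate 1 or without both are given beside several of the results below. By the last number of the deposited column names, all HKO libraries came before all WT libraries. What this number stands for is not given, and a difference that goes with it cannot be told apart from one between genotypes. By the number in their titles the genotypes were mixed, with WT replicate 4 between HKO replicates 1 and 2.

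**Figure D1:**
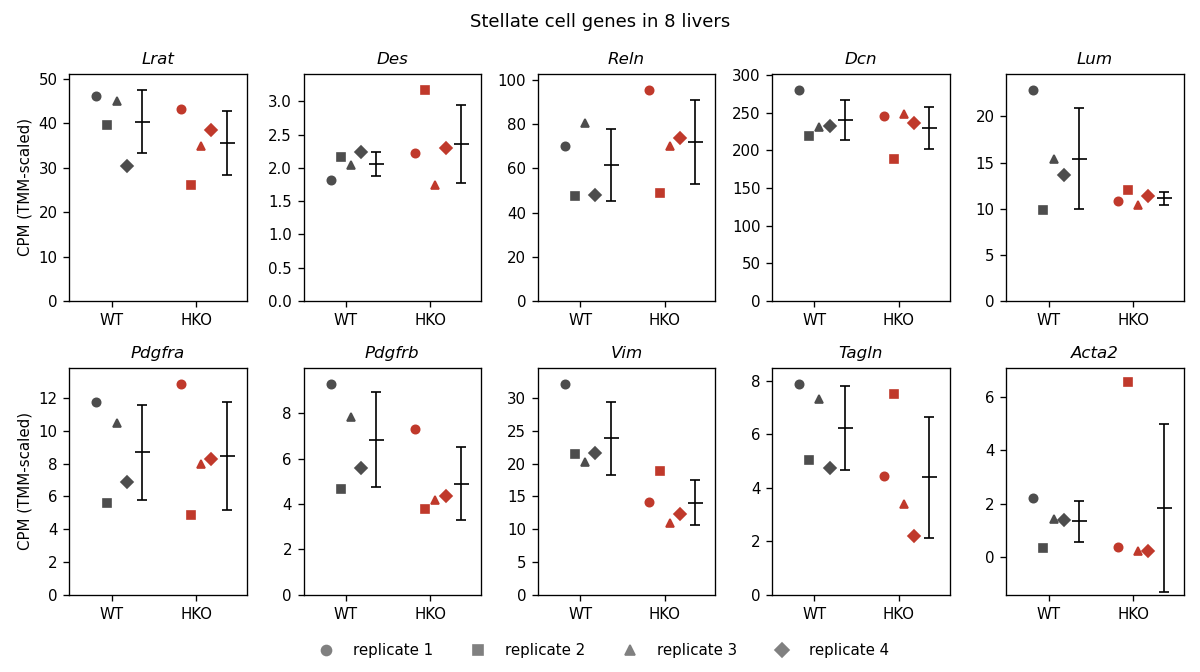
Each panel shows 1 gene, with CPM (TMM-scaled) on the vertical axis, the 4 WT livers in grey, the 4 HKO livers in red, a symbol for each replicate number, and the mean with its SD at the right of each group. The genotypes are apart only for Vim (20.2 to 32.1 CPM in WT and 11 to 18.8 CPM in HKO livers), and HKO replicate 2 is the single high liver for Acta2 at 6.56 CPM.

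Divided by the length of their merged exons, the 10 genes were present at widely different levels. Dcn, which encodes decorin, a small leucine-rich proteoglycan that binds collagen fibrils, was the most abundant at 40.3 CPM per kb averaged over the 8 livers. Lrat followed at 7.09 CPM per kb, Lum at 5.43, Vim at 4.0, Reln at 2.82 and Tagln at 2.67 CPM per kb. The lowest levels were those of Pdgfrb at 1.07, Pdgfra at 0.856, Acta2 at 0.732 and Des at 0.589 CPM per kb. Dcn lay above Lrat in every liver, while each later gene in this order overlapped with the next in its levels over the 8 livers, so these neighbours were not separated by the spread. The mean of Acta2 lies above Des because of HKO replicate 2, at 2.99 CPM per kb, while the other livers were at 0.103 to 1.02 CPM per kb. With the longest coding transcript as the length, Dcn was at 134 and Vim at 8.64 CPM per kb, and Vim, Lrat and Reln then came before Lum. With the whole gene span as the length, Dcn and Lrat stayed first, while Des ranked 6 and Reln 9 of the 10 genes.

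**Figure D2:**
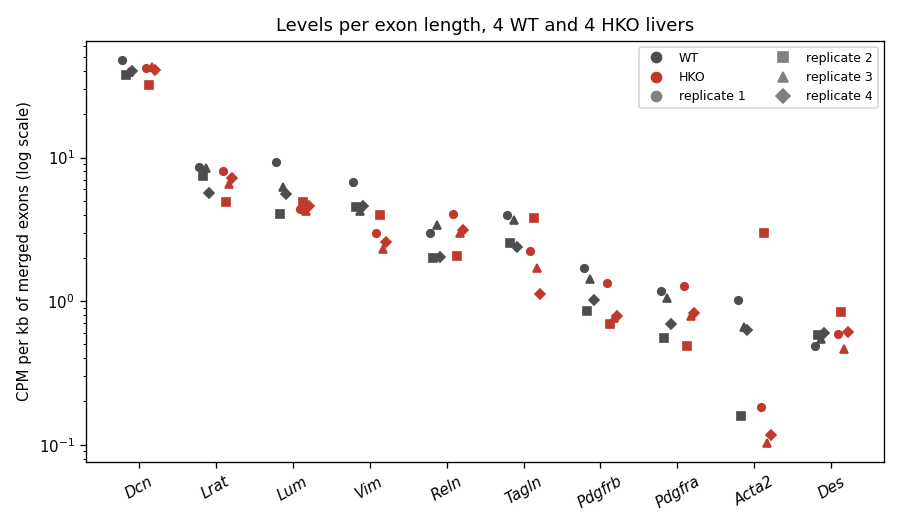
The vertical axis gives CPM per kb of merged exons on a log scale, for each of the 4 WT livers (grey) and 4 HKO livers (red), with genes ordered by their mean over all 8 livers. Dcn lies above every other gene in every liver, Des lies between 0.465 and 0.843 CPM per kb, and Acta2 spreads most, from 0.103 to 2.99 CPM per kb.

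The deleted microRNA pairs with messages through its seed, bases 2 to 8. The mature mouse sequence from RefSeq is shown because its seed was searched for in the 10 genes, with the seed in capitals.
mmu-miR-33-5p: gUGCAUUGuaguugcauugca

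Each gene's 3′UTR was taken from the transcript where it is longest (GENCODE vM21, GRCm38), and CAATGCA or AATGCAA was counted as a match, on the strand of the message. CAATGCA pairs with the whole seed. AATGCAA does not reach base 8 of the microRNA, and its last A lies opposite the first base without pairing. Lrat had 2 matches in 4394 bases and Pdgfra 2 in 3115 bases, the longest 3′UTRs among the 10 genes, and the other 8 genes, with 342 to 1678 bases, had 0. A match occurred in 2037 of 11554 tested genes, 17.6%. The 4 windows are shown, with the counted forms in capitals. Those of Lrat are on the minus strand and those of Pdgfra on the plus strand.
Lrat, chr3:82893615-82893638: gtcaggtaAATGCAAgtggtctag
Lrat, chr3:82893228-82893251: tgagtcatAATGCAAatatctgat
Pdgfra, chr5:75195162-75195185: cttcattgCAATGCAAaagttgag
Pdgfra, chr5:75197130-75197153: cataatctCAATGCAAaccccaac

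Both windows of Pdgfra hold the longer match in which the 2 forms overlap. Those of Lrat hold AATGCAA alone and so do not pair with the whole seed. The log2 fold changes of these genes were -0.18 for Lrat and -0.03 for Pdgfra and did not pass the test. Vim, the gene past the threshold, had 0 matches in a 3′UTR of 342 bases. A match is a description of the sequence and not a measured site.

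Lrat encodes lecithin retinol acyltransferase, the enzyme that esterifies retinol for storage in the stellate cell droplet, and lies at chr3:82892582-82903974 on the minus strand of GRCm38, overlapping Rbm46os on the other strand. It was measured at 46.0, 39.7, 45.0 and 30.5 CPM in WT replicates 1 to 4, and at 43.1, 26, 34.8 and 38.5 CPM in HKO replicates 1 to 4. The ranges overlapped over most of their width, with the lowest value in HKO replicate 2. WT livers averaged 40.3 ± 7.10 CPM and HKO livers 35.6 ± 7.24 CPM (SD, n = 4 each), a log2 fold change of -0.18 with a 95% confidence interval from -0.55 to 0.19 (adjusted p = 0.625, edgeR's quasi-likelihood test over all tested genes). Without HKO replicate 2 the log2 fold change was -0.05.

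Reln encodes reelin, a large secreted glycoprotein that stellate cells release in the liver, and lies at chr5:21884454-22344705 on the minus strand. WT livers held 70.3, 47.7, 80.6 and 47.8 CPM and HKO livers 95.3, 49.0, 70.2 and 74.0 CPM. Both genotypes contained livers between 47.7 and 49.0 CPM, and the highest liver was HKO replicate 1. WT livers averaged 61.6 ± 16.5 CPM and HKO livers 72.1 ± 19.0 CPM, for a log2 fold change of 0.23 with a 95% interval from -0.34 to 0.80 (adjusted p = 0.686). It ranged from 0.065 without HKO replicate 1 to 0.39 without WT replicate 3, and was 0.37 without HKO replicate 2, 0.13 without WT replicate 2 and 0.12 without WT replicate 4.

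Des encodes desmin, the muscle-type intermediate filament protein of stellate cells in rodents, and lies at chr1:75360292-75368579 on the plus strand. It was a rare transcript, with 22 to 41 counts per liver, at 1.82, 2.16, 2.04 and 2.23 CPM in WT, with 2.23, 3.17, 1.75 and 2.30 CPM in HKO livers. The HKO livers enclosed the WT range, with HKO replicate 2 highest and HKO replicate 3 lowest. Desmin transcripts had a log2 fold change of 0.18 (95% interval -0.36 to 0.72, adjusted p = 0.759), which came to 0.0087 without HKO replicate 2.

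The proteoglycan genes Dcn and Lum are neighbours on chromosome 10 and read in the same direction. Dcn lies at chr10:97479500-97518163 and Lum, which encodes the keratan sulfate proteoglycan lumican, at chr10:97565501-97572703. The gap between them is 47.3 kb and holds 0 other genes of the table. They did not have the same pattern over the livers.

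Dcn was the steadiest of the 10 genes, with the highest liver 1.49 times the lowest. WT livers were at 280, 219, 231 and 233 CPM and HKO livers at 246, 188, 249 and 236 CPM. WT replicate 1 was the highest and HKO replicate 2 the lowest. The log2 fold change of -0.07 had a 95% interval from -0.30 to 0.17 (adjusted p = 0.808), and it turned to 0.016 without WT replicate 1 and to 0.019 without HKO replicate 2.

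Lum was at 22.8, 9.84, 15.4 and 13.7 CPM in WT, with 10.8, 12.0, 10.4 and 11.3 CPM in HKO livers. The HKO livers lay close together, with a coefficient of variation of 6.30%, and WT livers were spread, with 35.3%. WT replicate 2 was below every HKO liver, so the groups overlapped although the other 3 WT livers were higher. The log2 fold change was -0.47, with a 95% interval from -0.93 to 0.00 (unadjusted p = 0.0508 and adjusted p = 0.258 in edgeR's test over all genes). It came to -0.22 without WT replicate 1, the liver with the highest mesothelial and portal fibroblast markers, whose part in the difference was not tested.

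Pdgfra encodes the PDGF receptor alpha, found on resting stellate cells and other fibroblasts, and lies at chr5:75152251-75198206 on the plus strand. Its levels were 11.7, 5.58, 10.5 and 6.90 CPM in the WT livers and 12.8, 4.86, 7.94 and 8.26 CPM in HKO livers. Livers of both genotypes lay at both ends of the range. For Pdgfra the log2 fold change was -0.03 (95% interval -0.74 to 0.68, adjusted p = 0.975), and it was 0.16 without HKO replicate 2 and 0.14 without WT replicate 1.

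Pdgfrb encodes the PDGF receptor beta, through which PDGF drives division of activated stellate cells, and lies at chr18:61045150-61085067 on the plus strand. WT livers were at 9.26, 4.68, 7.81 and 5.59 CPM and HKO livers at 7.29, 3.78, 4.17 and 4.34 CPM. Among the HKO livers 3 lay below all WT livers, and HKO replicate 1 lay within the WT range. Its log2 fold change was -0.48, and the 95% interval from -1.04 to 0.09 includes 0 (adjusted p = 0.352). It came to -0.30 without WT replicate 1 and to -0.73 without HKO replicate 1.

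Read within each liver, the ratio of Pdgfrb to Pdgfra was 0.744 to 0.838 in WT livers. In HKO livers it was 0.568, 0.778, 0.525 and 0.526, so that HKO replicate 2 lay in the WT range while the other 3 were below it. Of the PDGF ligand genes, listed with the receptor-like gene Pdgfrl, 3 of 5 were tested and 0 passed (1 had an unadjusted p under 0.05, and DESeq2 called 0). Pdgfa was at 12.0 ± 2.03 CPM in WT against 9.17 ± 2.58 CPM in HKO livers (log2 fold change -0.39, adjusted p = 0.290), and Pdgfc at 3.74 ± 0.810 CPM against 5.83 ± 1.79 CPM (0.64, adjusted p = 0.156).

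Acta2 encodes alpha smooth muscle actin, the usual marker of the myofibroblast and also a protein of every arterial wall, and lies at chr19:34240336-34255373 on the minus strand. Only 3 to 85 counts per liver were assigned to it. The WT livers were at 2.23, 0.349, 1.44 and 1.38 CPM and the HKO livers at 0.405, 6.56, 0.225 and 0.255 CPM. HKO replicate 2 was the highest liver of the series, while the other 3 HKO livers and WT replicate 2 were low, near the level of 3 counts. Over all livers the log2 fold change was 0.44, with a 95% interval from -2.30 to 3.18 (adjusted p = 0.888). With all livers kept, it was -0.85 by limma-voom and -0.77 in a fit with the replicate numbers as blocks. Without HKO replicate 2 it was -2.16 (adjusted p = 0.0768 in edgeR's test over all genes), on a mean of 0.295 ± 0.0961 CPM for the remaining 3 HKO livers against 1.35 ± 0.772 CPM in WT livers.

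Tagln encodes transgelin, an actin-binding protein of smooth muscle and myofibroblasts, and lies at chr9:45929628-45936058 on the minus strand, where it overlaps Pcsk7 on the plus strand. It was at 7.85, 5.03, 7.31 and 4.73 CPM in WT, with 4.45, 7.49, 3.38 and 2.21 CPM in HKO livers. The HKO livers other than replicate 2 were lower than every WT liver, and HKO replicate 2, as for Acta2, was among the high ones. Its log2 fold change was -0.51 (95% interval -1.24 to 0.23, adjusted p = 0.451) with all livers and -0.88 (adjusted p = 0.0957) without HKO replicate 2.

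The high Acta2 and Tagln of HKO replicate 2 went with high Myh11 and Myl9 and with high Krt19 and Epcam, the bile duct markers given above. In that liver Myh11, the smooth muscle myosin heavy chain, was at 4.63 CPM against 0.766 to 1.74 CPM in the other 7, and Myl9, a regulatory light chain, was at 5.25 CPM against 0.540 to 2.44 CPM. The same liver was the lowest of all 8 for Lrat, Dcn, Pdgfra and Pdgfrb. It was the highest for Des, and from the top it ranked 4 for Lum, 5 for Vim and 6 for Reln. The sum of the 19 contractile and smooth muscle genes was 270.8 CPM there, within the WT range of 260.6 to 286.4 CPM. The other HKO livers were at 218.0 to 265.6 CPM. Myh11, Myl9, Krt19 and Epcam were thus high in 1 library, where 4 of the 10 genes were at their lowest and Des at its highest. Their part in the Acta2 value was not tested.

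**Figure D3:**
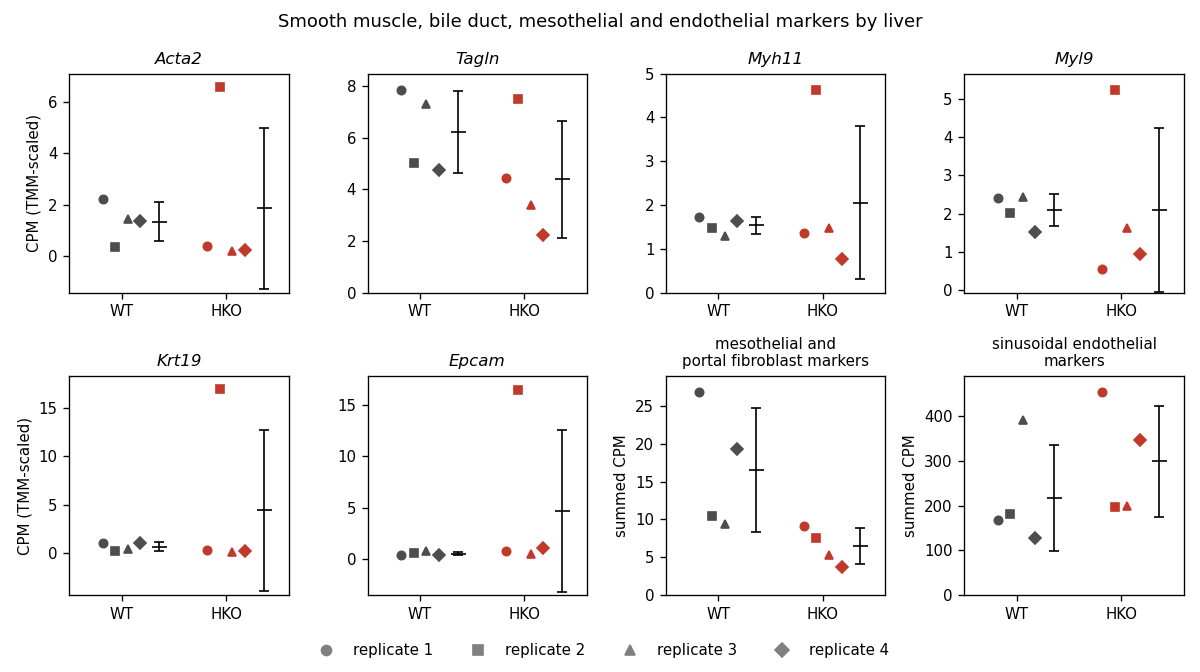
The first 6 panels give CPM (TMM-scaled) of Acta2, Tagln, the smooth muscle genes Myh11 and Myl9 and the bile duct genes Krt19 and Epcam, and the last 2 panels give the summed CPM of mesothelial and portal fibroblast markers and of sinusoidal endothelial markers, by liver and with mean and SD. HKO replicate 2 (red square) is the highest liver for Acta2, Myh11, Myl9, Krt19 and Epcam, and the second highest for Tagln, and WT replicate 1 (grey circle) is the highest for the mesothelial and portal fibroblast sum at 26.9 CPM.

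Vim encodes vimentin, the intermediate filament protein of mesenchymal cells, which in liver is made by stellate, endothelial and immune cells and hardly by hepatocytes, and lies at chr2:13574311-13582826 on the plus strand. Vimentin transcripts were at 32.1, 21.5, 20.2 and 21.7 CPM in WT livers and at 14.1, 18.8, 11 and 12.3 CPM in HKO livers. All HKO livers lay below all WT livers, which 7.19% of the tested genes did. WT replicate 1 stood above the other WT livers and HKO replicate 2 was the HKO liver nearest to them. WT livers averaged 23.9 ± 5.51 CPM and HKO livers 14 ± 3.44 CPM, 1.70 times higher in WT, a log2 fold change of -0.76 ± 0.19 (SE) with a 95% interval from -1.19 to -0.34 (adjusted p = 0.0472 by edgeR's quasi-likelihood test).

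The adjusted p of Vim lay just inside the threshold and moved with the livers and the method. DESeq2, which called 8.2% of its genes, gave 0.00452 and limma-voom 0.0412. In 8 fits that each lacked 1 liver, the difference ranged from -0.93 to -0.59 on the log2 scale. Of these fits 1 called the gene, that without HKO replicate 2 (adjusted p = 0.0156, where 2.56% of genes were called lower), and the adjusted p reached 0.124 in the others. With both WT replicate 1 and HKO replicate 2 left out, the log2 fold change was -0.76 and the adjusted p 0.0198, in a fit that called 1.23% of genes lower. Vim is not specific to stellate cells, and the genotypes overlapped in the summed markers of endothelial and immune cells. Of 10 sinusoidal endothelial markers tested, 9 had a positive and 1 a negative log2 fold change, with a median of 0.48, and 0 passed. That median was 0.15 to 0.95 with 1 liver left out. Of 8 macrophage and Kupffer cell markers 3 were positive and 5 negative, with a median of -0.02, and of 8 lymphocyte markers only 1 was tested. The summed level of 10 sinusoidal endothelial markers was 128 to 391 CPM in WT and 198 to 454 CPM in HKO livers, that of 8 macrophage and Kupffer cell markers 86.6 to 230 CPM and 64.3 (HKO replicate 2) to 215 CPM, and that of 8 lymphocyte markers 10.8 to 16.9 CPM and 13.7 to 20.5 CPM. The mesothelial and portal fibroblast sum, at 9.40 to 26.9 CPM in WT and 3.75 to 9.18 CPM in HKO livers, was lower in every HKO liver, though 0 of its 5 tested genes passed (2 had an unadjusted p under 0.05, and DESeq2 called 1). Of 7 hepatocyte markers tested, Cps1, Ass1 and Hnf4a were higher in HKO livers and the other 4, with Alb at -0.03, did not pass. Leaving out 1 liver kept Cps1 in every fit (adjusted p of 0.00945 without HKO replicate 2), but the count of hepatocyte markers called higher was 1 without WT replicate 2, WT replicate 3, HKO replicate 1, HKO replicate 2 or HKO replicate 4, and 2 without WT replicate 1 or WT replicate 4. The part of any of these lists in the Vim difference was not tested.

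Promoters, from 250 bases before to 50 bases after the start, were given by RefSeq (GRCm38.p6) for 6 of the 10 genes: Des, Vim, Lrat, Reln, Pdgfra and Acta2. On both strands, TATAAA was in the Vim promoter alone, beginning 32 bases before the start, and in 13.6% of 32851 promoters. GGGCGG was found 6 times in Reln, 2 times in Des and 2 times in Lrat, and in 35.7% of promoters. The CArG box, bound by serum response factor at contractile genes, was searched for only in its exact form CCWWWWWWGG, where W is A or T. This exact form was in none of the 6 in this window and in 1.63% of promoters. Near forms were not counted, such as CCCTATATGG and CCTTGTTTGG in the Acta2 promoter. TGANTCA, the AP-1 motif, was in none of the 6 and in 7.81%. The Vim promoter is shown because Vim was the gene that differed between the genotypes, with TATAAA in capitals, on the plus strand.
Vim, chr2:13574061-13574360: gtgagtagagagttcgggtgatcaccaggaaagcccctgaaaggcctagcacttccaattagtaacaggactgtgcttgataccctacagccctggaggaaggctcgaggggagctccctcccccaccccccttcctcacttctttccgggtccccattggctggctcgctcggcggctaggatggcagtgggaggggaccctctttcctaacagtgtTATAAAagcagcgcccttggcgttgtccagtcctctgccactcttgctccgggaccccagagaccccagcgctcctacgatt

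**Figure D4:**
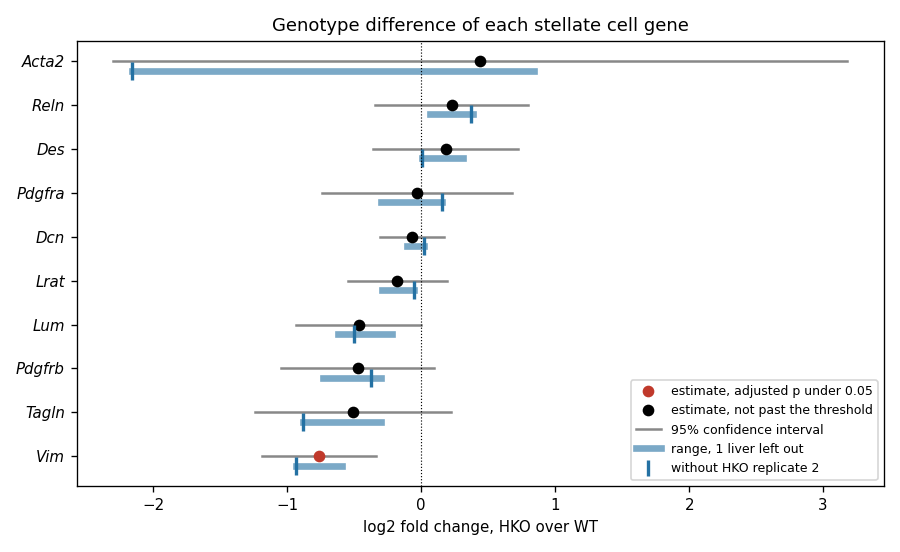
The horizontal axis gives the log2 fold change of HKO over WT for each of the 10 genes, with the estimate as a dot, its 95% confidence interval as a grey line, the range over the fits that leave out 1 liver as a blue bar and the value without HKO replicate 2 as a blue tick. Vim is the only red dot (-0.76), the intervals of the other 9 genes include 0 (that of Lum ends at 0.00), and Acta2 runs from 0.44 with all livers to -2.16 without HKO replicate 2.

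Across the 10 genes, 7 had a negative and 3 a positive log2 fold change, with a median of -0.12 beside a median of 0.01 over all tested genes. With 1 liver left out that median ran from -0.29 (without HKO replicate 1) to -0.046 (without WT replicate 1), and it was -0.21 without HKO replicate 2, -0.21 without WT replicate 4 and -0.18 without WT replicate 2. The genes did not rank the livers alike. WT replicate 1 was the highest liver for 6 genes (Lrat, Dcn, Lum, Pdgfrb, Tagln and Vim), HKO replicate 1 for Reln and Pdgfra, and HKO replicate 2 for Des and Acta2. Summed over the 10 genes, the level was 355 to 484 CPM in WT and 320 to 437 CPM in HKO livers, and this sum is mostly Dcn.

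The genes were also read as ratios within each liver. Of the 45 pairs among the 10 genes, 3 had ratios that did not overlap between the genotypes in either direction, a share of 6.67%. Of single genes 7.19% did not overlap downwards and a further 5.34% upwards. The share over pairs of all tested genes was not computed. The 45 pairs are built from the same 10 genes and are not independent, so their share cannot be set against that of single genes. All 3 pairs are given here after their values were seen, with no test. Reln over Lrat was 1.53, 1.20, 1.79 and 1.57 in WT and 2.21, 1.88, 2.02 and 1.92 in HKO livers. The other pairs were Reln over Pdgfrb and Des over Vim, both with all HKO livers higher. Vim over Lrat was 0.449 to 0.711 in the WT mice and 0.316 to 0.327 in 3 HKO livers, but 0.724 in HKO replicate 2. Tagln over Lrat had the same form, with 0.127 to 0.171 in WT, 0.0575 to 0.103 in 3 HKO livers and 0.288 in HKO replicate 2. Both ratios thus lay below the WT range in 3 of 4 HKO livers.

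The gene nearest to each of the 10 in its pattern over the 8 livers was taken from 11877 tested genes with a mean of at least 1 CPM, as the smallest root mean square difference of centred log2 CPM. Lrat was nearest to Colec11 (0.09), which encodes a collectin made by stellate cells, Reln to Gdf2 (0.11), which encodes the stellate cell ligand BMP9, Pdgfra to Mxra8 (0.14), and Pdgfrb to the fibril-associated collagen gene Col14a1 (0.17). Dcn was nearest to Atg4c (0.04), Des to Fancf (0.09), Lum to Cdca3 (0.10), Vim to Ank2 (0.12), Tagln to Sema5a (0.17) and Acta2 to Elovl7 (0.51). With 8 livers and so many genes a close pattern is easily found, so these are descriptions.

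Related genes were counted in lists, to be read beside the 5.15% called, the 19.6% at an unadjusted p under 0.05 and the median log2 fold change of 0.01 over all tested genes. With 1 liver left out the list medians ran from -0.08 to 0.17 for the other stellate cell genes, from -0.19 to -0.047 for the contractile genes, from -0.07 to 0.11 for the TGF-beta pathway, from -0.66 to -0.32 for the myofibroblast and matrix remodelling genes and from -1.04 to -0.67 for the collagens. Of 20 other genes of the stellate cell 19 were tested and 0 passed (edgeR, with 0 at an unadjusted p under 0.05 and 0 by DESeq2), with a median log2 fold change of 0.09. Rgs5, a regulator of G protein signalling found in pericytes, was at 71.4 ± 11.2 CPM in WT against 81.7 ± 21.4 CPM in HKO livers (0.19, adjusted p = 0.649). Ecm1, an extracellular matrix glycoprotein gene, was at 53.2 ± 5.03 and 60.2 ± 5.96 CPM (0.18, adjusted p = 0.337), and Colec11 and Gdf2 had log2 fold changes of -0.20 and 0.16. Gfap, used as a stellate cell marker in rodents, had at most 0.460 CPM in any liver and was not tested.

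Of 18 genes of retinoid handling 14 were tested, and 1 was lower and 0 were higher in HKO livers (6 at an unadjusted p under 0.05, and DESeq2 called 1). The one that fell was Aldh1a1, a retinaldehyde dehydrogenase that hepatocytes also express, at 2655 ± 229 CPM in WT against 1783 ± 239 CPM in HKO livers (log2 fold change -0.57, adjusted p = 0.0143). Rbp4, the plasma retinol carrier made by hepatocytes, was at 2339 ± 195 and 2782 ± 290 CPM (0.25, adjusted p = 0.214). Without WT replicate 2 the count of called genes was 0, and without WT replicate 4 it was 2. In 3 of the 14 genes all HKO livers lay below all WT livers, and in 0 they all lay above. The shares over all tested genes were 7.19% and 5.34%.

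Among the small leucine-rich proteoglycans besides Dcn and Lum, 8 of 10 were listed, 7 were tested and 0 passed (1 at an unadjusted p under 0.05, and DESeq2 called 1). Bgn, encoding biglycan, was at 82.1 ± 21.7 CPM in WT against 73 ± 11.6 CPM in HKO livers (-0.17, adjusted p = 0.697), and Prelp at 36.5 ± 13.2 and 38.4 ± 13.8 CPM (0.07, adjusted p = 0.942). Their median log2 fold change was -0.29, which came to -0.07 without HKO replicate 2 and to -0.035 without WT replicate 1. Of 7 genes of the reelin pathway 5 were tested and 0 passed, 0 of them at an unadjusted p under 0.05 and 0 by DESeq2, with Itgb1 at 0.06 and the adaptor gene Crk at -0.01. The reelin receptor gene Lrp8 and its adaptor Dab1 were too low to be tested. Of the intermediate filament genes besides Vim and Des, 8 were tested and 0 passed, with a median of -0.34, 1 gene at an unadjusted p under 0.05 and 0 by DESeq2. Krt8, which encodes an epithelial keratin, was at 120 ± 16.5 and 86.3 ± 23.0 CPM (-0.47, adjusted p = 0.186), and without HKO replicate 2, where it was at 119 CPM, it was at -0.66 (adjusted p = 0.0172). Its partner Krt18 was at -0.20 (adjusted p = 0.530).

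Collagens are the main matrix product of the myofibroblast. Of 11 collagen genes tested, 5 were lower and 0 were higher, with a median log2 fold change of -0.86. Col1a1, the alpha chain gene of type I collagen, was at 26.9, 10.3, 11.5 and 17.7 CPM in WT, with 1.96, 3.40, 2.70 and 1.28 CPM in HKO livers (-2.81, adjusted p = 0.00755), and unlike Acta2 it was low in HKO replicate 2 as well. Relative to Lrat, Col1a1 was at 0.257 to 0.583 in WT and 0.0332 to 0.131 in HKO livers. Col1a2 (-1.96), Col3a1 (-1.87) and Col5a2 (-1.51) also fell, as did Col6a1, whose call was lost without HKO replicate 2 (adjusted p = 0.0756) and without WT replicate 1, while Col14a1 was at 62 ± 18.3 and 43.8 ± 17.6 CPM (-0.50, adjusted p = 0.473). Without WT replicate 1, whose Col1a1 was the highest, 3 collagen genes passed, 3 passed without HKO replicate 4, and limma-voom called 3.

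Of 31 genes of the myofibroblast and matrix remodelling list, 24 were tested, 3 fell and 0 rose, with a median log2 fold change of -0.54 and 12 genes at an unadjusted p under 0.05. DESeq2 called 6. Tnc, encoding tenascin C, fell by 1.48 on the log2 scale (adjusted p = 0.0329), and Loxl2, a lysyl oxidase that crosslinks collagen, by 1.01 (adjusted p = 0.0481). Each of the pair was called in 2 of 8 fits that lacked 1 liver, and the Loxl2 call was lost without HKO replicate 2 (-0.83, adjusted p = 0.0831), without WT replicate 1 and with limma-voom (0.0517), and Tnc was at -1.64 without HKO replicate 2 (adjusted p = 0.0407). The list's count was 1 without WT replicate 1, WT replicate 3, HKO replicate 3 or HKO replicate 4. Fn1, encoding fibronectin and mostly made by hepatocytes in liver, went the other way, at 1215 ± 30.3 CPM in WT against 1471 ± 5.83 CPM in HKO livers without overlap, as 5.34% of genes did in that direction (0.28, adjusted p = 0.0695), and Sparc was at 73.7 ± 16.5 and 51.8 ± 11.5 CPM (-0.51, adjusted p = 0.170). Timp1, the tissue inhibitor of metalloproteinases, was too low to be tested, at most 0.920 CPM.

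Of 19 contractile and smooth muscle genes 14 were tested, 2 fell and 0 rose, with a median log2 fold change of -0.11. Tpm2, a tropomyosin gene of smooth and slow muscle, was at 15.5, 13.3, 15.5 and 14.1 CPM in WT, with 5.94, 11.7, 5.30 and 7.15 CPM in HKO livers (-0.97, adjusted p = 0.0270). HKO replicate 2 was again the HKO liver nearest to WT. Tpm1 was at 31.7 ± 4.87 CPM in WT against 21.1 ± 3.14 CPM in HKO livers (-0.58, adjusted p = 0.0255). The most abundant genes of the list, Mylk at -0.10 and Vcl at -0.12, did not pass. Without WT replicate 1, WT replicate 2, HKO replicate 1 or HKO replicate 4 the count was 0, and it was 1 without WT replicate 3, WT replicate 4 or HKO replicate 3. Of 18 genes of the TGF-beta pathway, which drives the myofibroblast, 17 were tested and 0 passed (2 at an unadjusted p under 0.05, 0 by DESeq2), with a median of 0.02, Smad4 at 0.12 and Tgfbr1 at 0.10.

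**Figure D5:**
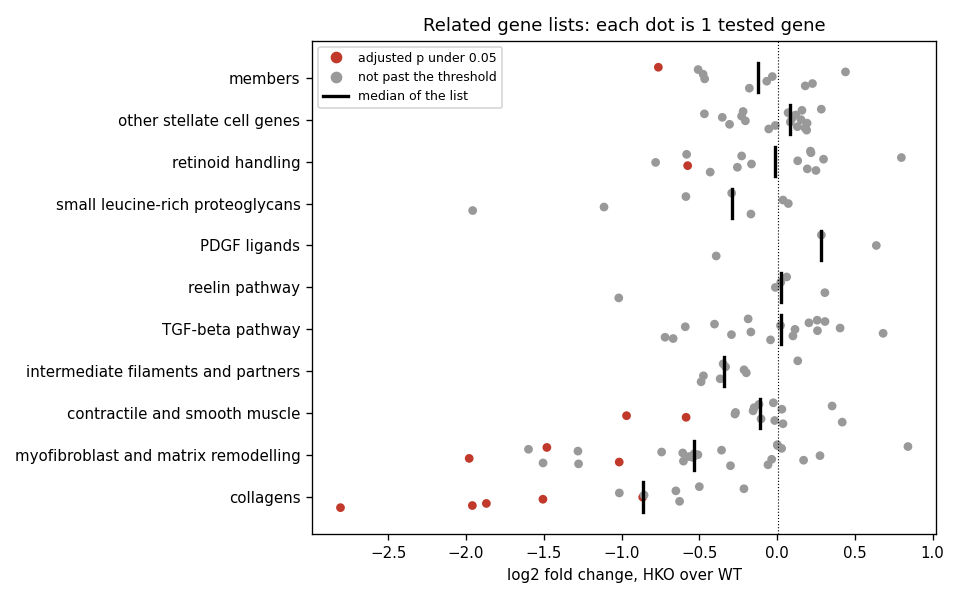
Each dot is a tested gene, placed by its log2 fold change of HKO over WT on the horizontal axis, in rows for the 10 stellate cell genes and 10 related lists, with called genes in red and the median of each list as a black bar. The bar of other stellate cell genes is at 0.09 and that of all tested genes (dotted line) at 0.01, while the collagens are at -0.86 and the myofibroblast and matrix remodelling genes at -0.54.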

How the data were processed

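RNA-Seq of 4 WT and 4 HKO livers was analysed. The authors deposited estimated counts per gene, not normalized, made by Partek's expectation-maximization method after alignment with STAR (versions not given in the sources used here), and 80.5% of the values are whole. The labels name both rRNA depletion and a small RNA kit, so the kind of library is uncertain. Each library has a number of its own in its title, but the descriptions of the 4 WT libraries all carry that of WT replicate 1, so p-values measure the spread between these libraries. Totals were 12174339 to 18735785 counts.

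Counts were rounded and tested with edgeR 4.0.16 in R 4.3.3 (minimum count 10, TMM, robust quasi-likelihood test, Benjamini-Hochberg over 12395 genes, threshold 0.05). DESeq2 1.42.0, limma-voom (limma 3.58.1), other scalings and filters, and left-out livers were alternatives. SE is the absolute log2 fold change over the square root of F. The models were tested on simulated data. Named genes were all 10 genes, up to 4 called genes with the largest change and the 2 most abundant of each list, and the nearest gene in pattern; others named were chosen after their values were seen. The genes and lists were chosen with earlier results of these data known. Replicate numbers did not pair the livers. Listed ends were taken as 1 base before the listed stop, since 65.3% of 17789 RefSeq genes end there. The values of 1 called gene that the naming rule selects are not reported here.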

Additional observations from a re-analysis of the deposited data

Results flagged for a closer look

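In 52 groups of 4 livers, made of the 10 genes and the summed lists, 1 liver lay far from the other 3 of its genotype in 4 cases, beside about 3 that chance gives at 1 in 20. Pdgfrb was at 7.29 CPM in HKO replicate 1 and at 3.78 to 4.34 CPM in the other HKO livers. Acta2 was at 6.56 CPM in HKO replicate 2 and at 0.225 to 0.405 CPM in the other HKO livers. Vim was at 32.1 CPM in WT replicate 1 and at 20.2 to 21.7 CPM in the other WT livers. The summed contractile and smooth muscle genes were at 260.6 CPM in WT replicate 2 and at 284.6 to 286.4 CPM in the other WT livers.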

How the results depend on the processing

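The count of 638 genes called became 1014 with DESeq2 and 207 with WT replicate 1 and HKO replicate 2 both left out, a setting chosen after their marker levels were seen, and 222 to 599 with 1 liver left out, with 222 without WT replicate 2, 293 without WT replicate 1 and 369 without HKO replicate 4. Of the 10 genes, 1 was called in each of the 11 other settings and 0 to 1 with 1 liver left out. Vim kept its direction in every setting, at -0.93 to -0.59 with 1 liver left out. With both livers left out the log2 fold change was 0.016 for Lrat, -0.041 for Des, 0.10 for Dcn and 0.33 for Pdgfra, each of the other sign. With 1 liver left out, Dcn ranged from -0.11 to 0.02, Pdgfra from -0.30 to 0.16 and Acta2 from -2.16 to 0.84. Dcn was at 0.016 without WT replicate 1 and 0.019 without HKO replicate 2, and Pdgfra at 0.14 without WT replicate 1, 0.08 without WT replicate 3, 0.16 without HKO replicate 2 and 0.0041 without HKO replicate 3. Acta2 was -0.85 with limma-voom and -0.77 with the replicate block, and it could not be tested with at least 10 counts in every liver or with both livers left out. The cause of these shifts was not tested. The replicate block, under which 470 genes and Vim (-0.77, adjusted p = 0.0380) were called, changed no call among the 10 genes. Livers with the same number correlated at -0.15 to 0.01 in their deviations, and 0 of 4 best with their own number. Total count scaling moved the median of all genes to -0.08. Acta2, with 3 to 85 counts, had the widest interval.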
